A study of Mus musculus with 9 samples.

Results

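The 40 genes described here are interferon-stimulated genes, chosen by name as a set of genes that interferons are known to induce. The choice was made with earlier results of these data known. The array annotation gave a probe set of its own to 38 of the 40, out of 18193 genes measured. The probe set for Isg15 carries several symbols and none is listed for Ifi44, so these 2 were not analysed here. Where a gene had several probe sets, the one with the highest mean over the 9 arrays stood for it.

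Interferons are cytokines that cells release on sensing viruses and, in the case of interferon-γ, on activation of T cells and natural killer cells. Type I interferons signal through the receptor IFNAR to a complex that includes STAT2 and IRF9 and binds the interferon-stimulated response element (ISRE). Interferon-γ signals through IFNGR, and its early target genes carry the gamma-activated sequence (GAS). The induced genes encode antiviral effectors, sensors of foreign nucleic acid, guanosine triphosphatases (GTPases) that attack intracellular pathogens, and factors that amplify or switch off the response.

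The study compared mouse CD4 T cells that had been driven towards an induced regulatory T cell (iTreg) state with TGFβ1 from different sources. The starting cells were naive CD4+EGFP- T cells, sorted from spleens of Foxp3EGFP reporter mice on the C57BL/6 (B6) background. They were cultured for 72 h with IL2 (100 U/ml), anti-CD28 (1 µg/ml) and a source of TGFβ1 on plates coated with 2.5 µg/ml of anti-CD3. In the group purTGFβ_iTreg that source was purified TGFβ1 at 5 ng/ml. In pltTGFβ_iTreg it was a freeze/thaw lysate of platelets from wild-type B6 mice, whose TGFβ1 was assayed by ELISA. A lysate holds all other platelet contents as well, and its TGFβ1 dose was not given in the sources used here. The third group, Tconv, carries the same strain label. Whether and how it was cultured cannot be settled. The treatment text repeated for each sample describes Tconv cells given TGFβ1, while the growth protocol describes iTreg cultures. The labels also leave out any sort for the reporter after culture and the age of the animals. Each group had 3 arrays, which the design text calls biological replicates.

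Arrays correlated at 0.994 or above within every group. Donor sex differed between the groups, and cannot be told apart from group in any comparison with Tconv. The mean log2 value of Xist was 10.81 in Tconv, 3.61 in purTGFβ_iTreg and 3.94 in pltTGFβ_iTreg, and that of the Y-linked Eif2s3y was 2.70, 9.01 and 8.95. None of the 4 sex-linked genes measured was called between the iTreg groups. Il2ra, Ctla4 and Ikzf2, which regulatory T cells express, were higher in both iTreg groups than in Tconv. Foxp3, the factor that defines that lineage, was not called in any comparison, with means of 3.79, 3.77 and 3.86. These lie below the array medians, which ran from 4.46 to 4.56, so this probe set may be too dim to show a change. The T cell genes Cd3d (12.80, 12.37 and 12.38) and Cd4 (8.67, 7.95 and 8.06) gave signal in all groups. Cd4 and the other CD4 T cell marker, Zbtb7b, were called lower in both iTreg groups than in Tconv. Of 8 pan T cell markers, 3 were called lower in purTGFβ_iTreg, and 2 lower and 1 higher in pltTGFβ_iTreg. The 3′ minus 5′ difference of the GAPDH control was -0.16 to -0.09 in Tconv and -0.24 to -0.20 in the iTreg groups. The upper quartile of array values was 6.59 to 6.70 in Tconv and 6.86 to 6.95 in the iTreg groups. RMA equalises the probe intensities of arrays processed together, and whether all 9 were is not given in the sources used here, so each change against Tconv may include a difference in processing. The part of these in the changes below was not tested, beyond the quantile normalization given beside the counts.

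Values below are log2 values from Robust Multichip Analysis (RMA), and a change is a difference of group means with its standard error (SE), from 3 arrays a group. Genes were called where the change exceeded 0.5 in size, which is 1.4-fold, and the adjusted p was below 0.1, from 1 limma model over 9 arrays with Benjamini-Hochberg adjustment over 45037 probe sets. These are the cutoffs of the series' design text. A value reflects RNA of a bulk sample, so fewer cells of a type and less RNA per cell cannot be told apart.

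The interferon-stimulated genes did not move as a block. In purTGFβ_iTreg against Tconv, 13 of the 38 were called higher and 10 lower, which is 60.5% called where 29.3% of all genes were (14.5% higher and 14.9% lower). In pltTGFβ_iTreg against Tconv, 13 were called higher and 6 lower, or 50% against 28.5% of all genes (13.9% higher and 14.7% lower). The iTreg groups differed in 5 members, all higher in pltTGFβ_iTreg, or 13.2% against 4.11% of all genes (1.54% higher and 2.57% lower). When each array was centred on its median, the splits against Tconv became 13 higher and 6 lower in purTGFβ_iTreg, and 13 and 3 in pltTGFβ_iTreg. After quantile normalization, which gives all arrays the same quartiles, they were 14 and 8, and 12 and 7. The shares of all genes called were not counted with centred or quantile-normalized arrays. Both comparisons share the Tconv arrays. The genes were chosen with earlier results of these data known, so these shares describe the list and are not a test of it. The median log2 change of the 38 was 0.015, 0.17 and 0.10 in these comparisons, where that of all genes was -0.17, -0.16 and 0.011. Brighter probe sets were called more often: without the dimmest 40% of probe sets, 33 members remained and 66.7%, 57.6% and 15.2% of them were called, where 40.5%, 39.5% and 5.78% of all genes were. The genes called lower against Tconv came from the oligoadenylate synthetases, the sensors, Irf7, Usp18, Ifitm2, Bst2 and Rsad2. Those called higher were Ifit2, the GTPase genes Gbp2, Gbp3, Igtp and Irgm1, the ADP-ribose and ubiquitin genes, Zbp1, Irf1, Ifitm3, Rtp4, Isg20 and Samhd1.

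**Figure D1:**
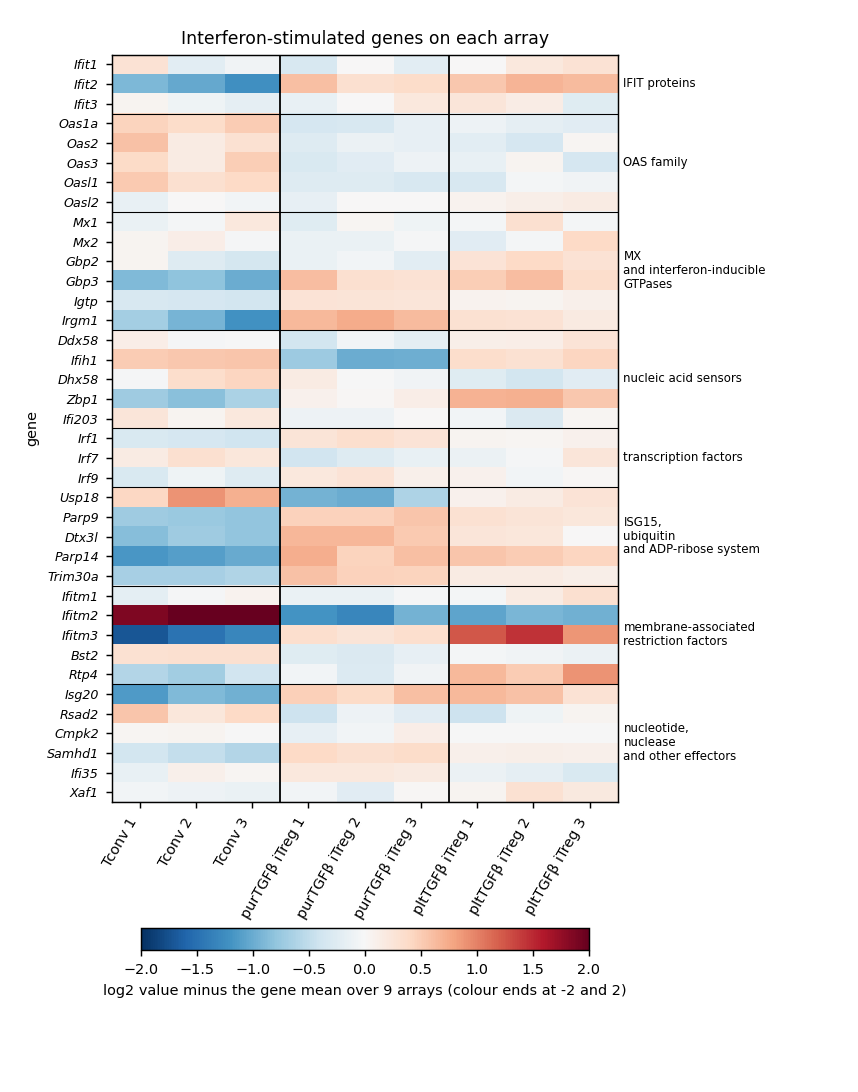
Log2 value of each of the 38 measured genes (rows, grouped by role) on each of the 9 arrays (columns), as a difference from that gene's mean over the arrays; red is above and blue below it, and the colour ends at -2 and 2. Ifitm2 stands above its mean on the 3 Tconv arrays and below it on the others, while Parp14, Ifit2 and Ifitm3 do the reverse.

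The start-site sequences of these genes were searched for the motifs that the interferon-activated factors bind. RefSeq windows of 300 bases (250 before and 50 after an annotated start, GRCm38.p6) were available for 31 of the 40 genes. The ISRE core, written GAAANNGAAA and searched on both strands, was found in windows of 17 of them. It lay in 46.2% of the 39 member windows and 3.44% of all 32851 windows. The GAS, written TTCNNNGAA and the same on both strands, was found for 9 genes, in 23.1% of member windows and 8.3% of all. In places the motifs overlap. The cores were not confined to genes called higher. Of the 29 measured genes with a window, 5 of 10 called higher in purTGFβ_iTreg against Tconv held an ISRE core, as did 6 of 8 called lower and 5 of 11 not called. The GAS was found for 6 of the 10, 2 of the 8 and 1 of the 11. In pltTGFβ_iTreg against Tconv, 9 genes with a window were called higher, 4 lower and 16 not called. An ISRE core was found for 5, 3 and 8 of these, and a GAS for 4, 1 and 4. A gene counted where any of its windows held the motif. Several of the genes called higher had more windows than those called lower, which raises their chance of a match. A match is a description of the letters only. The stretches below run from 120 bases before to 30 after the start, 5′ to 3′ on the gene's strand, with matches in capitals. Igtp, Irgm1, Gbp3, Irf1 and Ifitm3 were higher in purTGFβ_iTreg than in Tconv, Oas1a and Ifitm2 were lower, and Ifit1 was not called.
Ifit1 (chr19:34640769-34640918, plus strand): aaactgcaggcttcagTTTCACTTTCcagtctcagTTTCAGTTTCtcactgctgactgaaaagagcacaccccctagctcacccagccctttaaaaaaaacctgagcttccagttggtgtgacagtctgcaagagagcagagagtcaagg
Oas1a (chr5:120907496-120907645, minus strand): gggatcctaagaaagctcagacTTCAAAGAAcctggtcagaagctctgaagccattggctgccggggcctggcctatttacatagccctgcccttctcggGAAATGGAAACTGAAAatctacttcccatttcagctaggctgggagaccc
Gbp3 (chr3:142559924-142560073, plus strand): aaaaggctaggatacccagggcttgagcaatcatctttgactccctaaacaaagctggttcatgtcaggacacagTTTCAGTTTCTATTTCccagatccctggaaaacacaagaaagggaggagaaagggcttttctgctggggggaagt
Igtp (chr11:58199436-58199585, plus strand): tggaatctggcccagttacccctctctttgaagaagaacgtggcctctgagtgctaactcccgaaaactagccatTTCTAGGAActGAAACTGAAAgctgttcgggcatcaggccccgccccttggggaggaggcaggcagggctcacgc
Irgm1 (chr11:48871391-48871540, minus strand): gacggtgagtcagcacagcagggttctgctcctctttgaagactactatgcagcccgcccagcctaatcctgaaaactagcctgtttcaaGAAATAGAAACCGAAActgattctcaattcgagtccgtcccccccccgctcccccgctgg
Irf1 (chr11:53769894-53770043, plus strand): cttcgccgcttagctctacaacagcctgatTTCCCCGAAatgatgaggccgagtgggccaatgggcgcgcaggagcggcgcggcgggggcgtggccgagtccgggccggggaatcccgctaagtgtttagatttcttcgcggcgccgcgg
Ifitm2 (chr7:140955932-140956081, minus strand): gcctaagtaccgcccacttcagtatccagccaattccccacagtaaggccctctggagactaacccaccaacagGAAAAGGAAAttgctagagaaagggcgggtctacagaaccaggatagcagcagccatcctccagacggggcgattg
Ifitm3 (chr7:141010715-141010864, minus strand): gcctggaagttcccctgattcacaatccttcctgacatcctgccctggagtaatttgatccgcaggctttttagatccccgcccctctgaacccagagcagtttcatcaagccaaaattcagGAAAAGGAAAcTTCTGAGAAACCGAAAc

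In the ISRE core search, Irgm1 and Gbp3 each held overlapping cores whose first bases lie 30 and 24 bases before the start for Irgm1 and 45 and 39 for Gbp3. Oas1a, which moved the other way, held them at 20 and 14 bases, with a GAS 98 bases before the start. Igtp held a core 34 bases and a GAS 45 bases before its start. The Irf1 window held a GAS at 90 bases and no ISRE core. Ifitm2 held a core 46 bases before the start, while in Ifitm3 the matches lie after it.

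The IFIT genes encode proteins with tetratricopeptide repeats that bind viral RNA. Only Ifit2 of the 3 was called. Ifit2 read 5.84, 5.70 and 5.51 on the Tconv arrays, 7.33, 7.05 and 7.10 on the purTGFβ_iTreg arrays and 7.26, 7.41 and 7.37 on the pltTGFβ_iTreg arrays. Every iTreg array lay above every Tconv array. The increase was 1.48 ± 0.11 (SE, adjusted p = 4.36e-07) in purTGFβ_iTreg, or 2.79-fold, and 1.66 ± 0.11 (SE, adjusted p = 1.99e-07) in pltTGFβ_iTreg, or 3.17-fold. Its neighbour on chromosome 19, Ifit3, had changes of 0.09 and 0.12 with overlapping arrays. Ifit1 had changes of -0.18 and 0.17 against Tconv, and its 9 arrays lay between 2.77 and 3.39. Its start-site stretch, shown above, holds ISRE cores. None of the 3 was called between the iTreg groups.

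The oligoadenylate synthetases make the second messenger that activates RNase L, which degrades RNA. In purTGFβ_iTreg 4 of the 5 were called lower and none higher, and in pltTGFβ_iTreg 3 of the 5 were called lower. Of all genes, 14.9% and 14.7% were called lower in these comparisons with Tconv. The log2 values of Oas1a were 6.54, 6.45 and 6.61 in Tconv, 5.76, 5.77 and 5.93 in purTGFβ_iTreg and 5.99, 5.91 and 5.87 in pltTGFβ_iTreg. Neither iTreg group overlapped Tconv, with a fall of 0.71 ± 0.08 (SE, adjusted p = 2.66e-05) in purTGFβ_iTreg and 0.61 ± 0.08 (SE, adjusted p = 1.01e-04) in pltTGFβ_iTreg. Oasl1 encodes an OAS-like protein with no synthetase activity. For Oasl1, the Tconv arrays gave 5.00, 4.79 and 4.88, those of purTGFβ_iTreg 4.22, 4.22 and 4.16 and those of pltTGFβ_iTreg 4.16, 4.44 and 4.40. Here too the Tconv arrays were the highest, and the changes were -0.69 ± 0.09 (SE, adjusted p = 8.93e-05) and -0.56 ± 0.09 (SE, adjusted p = 4.99e-04). The latter dropped to -0.47, under the fold cutoff, without pltTGFβ_iTreg replicate 1.

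Oas2 and Oas3, neighbours on chromosome 5, encode the larger synthetases and gave changes near the cutoff. Oas2 had values of 5.32, 4.89 and 5.03 in Tconv, 4.47, 4.62 and 4.56 in purTGFβ_iTreg and 4.51, 4.39 and 4.77 in pltTGFβ_iTreg. The changes were -0.53 ± 0.12 (SE, adjusted p = 0.00448) and -0.52 ± 0.12 (SE, adjusted p = 0.00499), with no iTreg array inside the Tconv range. Both calls were lost without Tconv replicate 1, at -0.41 and -0.40. The first was also lost without purTGFβ_iTreg replicate 1, at -0.49, and the second without pltTGFβ_iTreg replicate 2, at -0.44. Both calls were lost as well with centred arrays (-0.47 in each) or with array weights in the model (-0.44 and -0.48). In Tconv the values of Oas3 were 4.02, 3.79 and 4.11, against 3.33, 3.40 and 3.53 in purTGFβ_iTreg and 3.49, 3.69 and 3.30 in pltTGFβ_iTreg. The Tconv arrays were again the highest, and the change was -0.56 ± 0.12 (SE, adjusted p = 0.00226) in purTGFβ_iTreg. Without Tconv replicate 3 it was -0.49 and no longer called. It was also not called after quantile normalization (-0.43), with centred arrays (-0.496) or with array weights (-0.47). In pltTGFβ_iTreg the change of -0.48 stayed under the fold cutoff, and it passed without Tconv replicate 2 (-0.57) or without pltTGFβ_iTreg replicate 2 (-0.58). Oasl2, the neighbour of Oasl1, had changes of 0.02 and 0.18, with array values of 2.45 to 2.78. The Oas1 genes form a family of close copies, so signal assigned to Oas1a may include its paralogues. No synthetase was called between the iTreg groups, where the changes ran from 0.01 to 0.16.

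The dynamin-like MX proteins, the guanylate-binding proteins (GBP) and the immunity-related GTPases act on viruses or on vacuoles that hold pathogens. Of the 6 members, 3 were called higher in each iTreg group and none lower. Of all genes, 14.5% were called higher in purTGFβ_iTreg and 13.9% in pltTGFβ_iTreg, each against Tconv. On the Tconv arrays Irgm1 stood at 8.71, 8.45 and 8.17, on those of purTGFβ_iTreg at 10.03, 10.12 and 10.01 and on those of pltTGFβ_iTreg at 9.69, 9.67 and 9.56. The increase was 1.61 ± 0.12 (SE, adjusted p = 5.63e-07), or 3.05-fold, in purTGFβ_iTreg and 1.20 ± 0.12 (SE, adjusted p = 7.09e-06), or 2.29-fold, in pltTGFβ_iTreg. No iTreg array reached down to the Tconv arrays, and the purTGFβ_iTreg arrays were the highest. The difference between the iTreg groups was -0.41 (adjusted p = 0.0757), under the fold cutoff. Gbp3 read 6.23, 6.30 and 6.12 on the Tconv arrays, 7.72, 7.42 and 7.40 on the purTGFβ_iTreg arrays and 7.60, 7.72 and 7.45 on the pltTGFβ_iTreg arrays. These 2 iTreg groups overlapped each other and lay above Tconv, with increases of 1.30 ± 0.11 (SE, adjusted p = 1.47e-06) and 1.38 ± 0.11 (SE, adjusted p = 1.04e-06).

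Igtp encodes IRGM3, which like IRGM1 regulates the vacuole-targeting GTPases. The log2 values of Igtp were 11.98, 11.96 and 11.92 in Tconv, 12.57, 12.55 and 12.54 in purTGFβ_iTreg and 12.36, 12.35 and 12.40 in pltTGFβ_iTreg. The spread within each group was under 0.1, and the groups stood in the order Tconv, pltTGFβ_iTreg, purTGFβ_iTreg with no overlap. The increase was 0.60 ± 0.07 (SE, adjusted p = 2.55e-05) in purTGFβ_iTreg, while that of 0.41 in pltTGFβ_iTreg (adjusted p = 4.87e-04) was under the fold cutoff. For Gbp2, the Tconv arrays gave 10.69, 10.36 and 10.28, those of purTGFβ_iTreg 10.50, 10.57 and 10.42 and those of pltTGFβ_iTreg 10.90, 11.03 and 10.91. The pltTGFβ_iTreg arrays were the highest, and the change there was 0.50 ± 0.11 (SE, adjusted p = 0.00253), at the edge of the cutoff. It was 0.46, 0.42 and 0.46 without Tconv replicate 2, Tconv replicate 3 or pltTGFβ_iTreg replicate 2, and then not called. It was also not called after quantile normalization (0.46) or with the gene's probe sets averaged (0.39), and a brighter, cross-hybridising probe set for Gbp2 gave 0.27, not called. In purTGFβ_iTreg the change was 0.05. Mx1 and Mx2 were not called, with array values of 2.80 to 3.37 and 4.59 to 5.21. Many laboratory strains, B6 among them, carry a defective Mx1. GBP genes lie in clusters of close copies, so their probe sets may share signal.

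Among the sensors of nucleic acid, Ifih1 and Zbp1 differed between the iTreg groups. IFIH1 (MDA5) detects long double-stranded RNA. Ifih1 had values of 6.69, 6.72 and 6.74 in Tconv, 5.45, 5.19 and 5.21 in purTGFβ_iTreg and 6.53, 6.49 and 6.61 in pltTGFβ_iTreg. The purTGFβ_iTreg arrays stood apart from all others, by 1.43 ± 0.09 (SE, adjusted p = 1.36e-07) below Tconv, or 2.70-fold. The pltTGFβ_iTreg arrays lay just under those of Tconv, with a change of -0.17 (95% interval -0.37 to 0.02, adjusted p = 0.13). Between the iTreg groups Ifih1 was higher in pltTGFβ_iTreg by 1.26 ± 0.09 (SE, adjusted p = 5.82e-06), or 2.39-fold, the largest such change of the 38. ZBP1 senses Z-form nucleic acid and starts cell death. In Tconv the values of Zbp1 were 7.41, 7.28 and 7.49, against 8.20, 8.15 and 8.25 in purTGFβ_iTreg and 8.82, 8.83 and 8.65 in pltTGFβ_iTreg. The groups rose in the order Tconv, purTGFβ_iTreg, pltTGFβ_iTreg without overlap. The changes were 0.81 ± 0.09 (SE, adjusted p = 1.26e-05) and 1.38 ± 0.09 (SE, adjusted p = 1.91e-07) against Tconv, and 0.57 ± 0.09 (SE, adjusted p = 0.00216) between the iTreg groups, or 1.48-fold. A second probe set for Zbp1 was called higher in both iTreg groups against Tconv, and gave 0.32 between them, which was not called.

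DHX58 (LGP2) and DDX58 (RIG-I) belong to the same helicase family as IFIH1. On the Tconv arrays Dhx58 stood at 4.64, 5.01 and 5.09, on those of purTGFβ_iTreg at 4.84, 4.67 and 4.60 and on those of pltTGFβ_iTreg at 4.43, 4.30 and 4.45. The change was -0.53 ± 0.12 (SE, adjusted p = 0.00355) in pltTGFβ_iTreg, where the arrays were the lowest, and -0.22 in purTGFβ_iTreg. The call was lost without Tconv replicate 2, Tconv replicate 3 or pltTGFβ_iTreg replicate 2, at -0.48, -0.44 and -0.48, and 2 dimmer probe sets for the gene were not called. It was also lost with centred arrays (-0.47) or with the gene's probe sets averaged (-0.38). Ddx58 had changes of -0.24 and 0.14 against Tconv and 0.39 between the iTreg groups (adjusted p = 0.037), below the fold cutoff. Its 2 dimmer probe sets gave -0.38 and 0.23 in pltTGFβ_iTreg against Tconv, and -0.17 and 0.21 between the iTreg groups. Neither was called. Ifi203, of a DNA-binding family with close copies, had changes of -0.24 and -0.27 against Tconv and was not called.

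**Figure D2:**
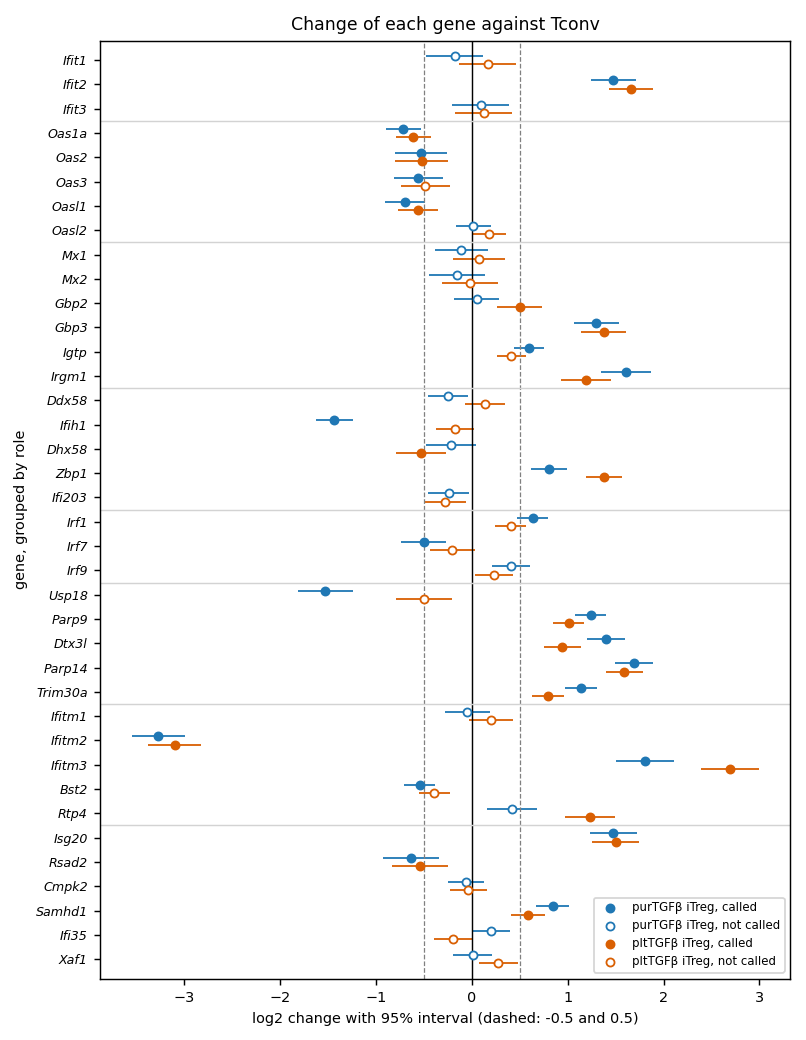
Log2 change of each of the 38 genes (rows) in purTGFβ_iTreg (blue) and pltTGFβ_iTreg (orange) against Tconv, with the 95% interval as a line; filled points were called and dashed lines mark -0.5 and 0.5. The OAS genes lie left of 0 except Oasl2, Parp9, Dtx3l, Parp14 and Trim30a lie right of it, and Ifih1 and Usp18 have blue points well left of the orange ones. Both comparisons use the same Tconv arrays.

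Of the transcription factors, IRF1 acts mainly downstream of interferon-γ, IRF7 amplifies type I interferon production, and IRF9 is the DNA-binding part of the STAT complex. Irf1 read 10.06, 10.03 and 9.97 on the Tconv arrays, 10.61, 10.71 and 10.64 on the purTGFβ_iTreg arrays and 10.41, 10.40 and 10.46 on the pltTGFβ_iTreg arrays. No groups overlapped, and purTGFβ_iTreg was the highest. The increase was 0.64 ± 0.07 (SE, adjusted p = 2.22e-05) in purTGFβ_iTreg and 0.41 (adjusted p = 7.76e-04) in pltTGFβ_iTreg, the latter under the fold cutoff. The log2 values of Irf7 were 4.22, 4.39 and 4.29 in Tconv, 3.68, 3.81 and 3.92 in purTGFβ_iTreg and 3.95, 4.04 and 4.31 in pltTGFβ_iTreg. The change was -0.50 ± 0.11 (SE, adjusted p = 0.00243) in purTGFβ_iTreg, at the edge of the cutoff, and -0.20 in pltTGFβ_iTreg, where 1 array reached the Tconv range. The Irf7 call was lost without Tconv replicate 2 (-0.46) or without purTGFβ_iTreg replicate 1 (-0.44). It was also lost after quantile normalization (-0.40) or with centred arrays (-0.44). Irf9 had changes of 0.41 (adjusted p = 0.00273) and 0.23 and was not called. None of the 3 was called between the iTreg groups.

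The remaining regulators attach or remove small modifiers. USP18 strips ISG15 from proteins and blocks signalling at IFNAR. For Usp18, the Tconv arrays gave 6.57, 7.05 and 6.85, those of purTGFβ_iTreg 5.20, 5.16 and 5.53 and those of pltTGFβ_iTreg 6.24, 6.32 and 6.43. The purTGFβ_iTreg arrays were the lowest and those of pltTGFβ_iTreg lay between the other groups, with no overlap. The fall was 1.53 ± 0.13 (SE, adjusted p = 2.08e-06) in purTGFβ_iTreg, or 2.88-fold. In pltTGFβ_iTreg the change was -0.50 ± 0.13 (SE, adjusted p = 0.00963), just under the fold cutoff, and it passed without Tconv replicate 1 (-0.62) or pltTGFβ_iTreg replicate 3 (-0.54). It also passed after quantile normalization (-0.70) or with array weights (-0.62). Between the iTreg groups Usp18 was higher in pltTGFβ_iTreg by 1.03 ± 0.13 (SE, adjusted p = 6.64e-04), or 2.04-fold.

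PARP9 and the ubiquitin ligase DTX3L work as a complex, and PARP14 transfers ADP-ribose to proteins. The 3 genes lie next to each other on chromosome 16, in the order Parp14, Dtx3l, Parp9. Parp14 had values of 6.67, 6.74 and 6.82 in Tconv, 8.56, 8.29 and 8.45 in purTGFβ_iTreg and 8.39, 8.35 and 8.27 in pltTGFβ_iTreg. The increase was 1.69 ± 0.09 (SE, adjusted p = 4.38e-08), or 3.22-fold, and 1.59 ± 0.09 (SE, adjusted p = 8.7e-08), or 3.02-fold, and the iTreg groups overlapped each other. In Tconv the values of Dtx3l were 7.93, 8.06 and 7.99, against 9.44, 9.44 and 9.30 in purTGFβ_iTreg and 9.02, 9.004 and 8.79 in pltTGFβ_iTreg. The purTGFβ_iTreg arrays were the highest and the Tconv arrays the lowest. The increases were 1.40 ± 0.09 (SE, adjusted p = 1.74e-07) and 0.95 ± 0.09 (SE, adjusted p = 4.66e-06). The difference of -0.46 ± 0.09 (SE, adjusted p = 0.0104) between the iTreg groups was under the fold cutoff, and passed it at -0.50 without purTGFβ_iTreg replicate 3. On the Tconv arrays Parp9 stood at 8.17, 8.14 and 8.10, on those of purTGFβ_iTreg at 9.35, 9.35 and 9.44 and on those of pltTGFβ_iTreg at 9.19, 9.14 and 9.12. The same order held for Parp9, with increases of 1.24 ± 0.07 (SE, adjusted p = 9.5e-08) and 1.01 ± 0.07 (SE, adjusted p = 5.43e-07). A second, dimmer probe set for Parp14 gave 0.56 and 0.46, of which only the first was called.

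Trim30a encodes a ligase that damps inflammatory signalling. Trim30a read 7.58, 7.58 and 7.65 on the Tconv arrays, 8.84, 8.71 and 8.69 on the purTGFβ_iTreg arrays and 8.42, 8.42 and 8.37 on the pltTGFβ_iTreg arrays. The increases were 1.14 ± 0.08 (SE, adjusted p = 2.34e-07) and 0.80 ± 0.08 (SE, adjusted p = 4.77e-06), with no overlap of any groups, and a second probe set gave 1.59 and 1.34. Of the 5 genes measured in this group, all 5 were called in purTGFβ_iTreg, 4 higher and 1 lower, and 4 in pltTGFβ_iTreg, all higher. The shares of all genes called in these comparisons, in either direction, were 29.3% and 28.5%. The TRIM30 genes are close copies of each other.

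The membrane proteins held both the largest fall and the largest rise of the 38. The IFITM proteins block the fusion of enveloped viruses with the cell's membranes, and Ifitm2, Ifitm1 and Ifitm3 lie side by side on chromosome 7. The log2 values of Ifitm2 were 10.05, 10.38 and 10.49 in Tconv, 6.99, 6.89 and 7.24 in purTGFβ_iTreg and 7.13, 7.28 and 7.23 in pltTGFβ_iTreg. The fall was 3.27 ± 0.13 (SE, adjusted p = 4.26e-09) in purTGFβ_iTreg, or 9.64-fold, and 3.10 ± 0.13 (SE, adjusted p = 9.3e-09) in pltTGFβ_iTreg, or 8.55-fold. No iTreg array came near the Tconv range, and the iTreg groups overlapped. For Ifitm3, the Tconv arrays gave 5.92, 6.14 and 6.32, those of purTGFβ_iTreg 7.96, 7.88 and 7.96 and those of pltTGFβ_iTreg 8.87, 9.07 and 8.51. Ifitm3 rose by 1.81 ± 0.14 (SE, adjusted p = 7.63e-07) in purTGFβ_iTreg, or 3.50-fold, and by 2.69 ± 0.14 (SE, adjusted p = 4.35e-08) in pltTGFβ_iTreg, or 6.46-fold. No groups overlapped, and the difference between the iTreg groups was 0.89 ± 0.14 (SE, adjusted p = 0.00259), or 1.85-fold. Ifitm1, between them in gene order, had changes of -0.05 and 0.20 against Tconv and was not called. IFITM coding sequences are alike, so some of the signal may be shared.

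**Figure D3:**
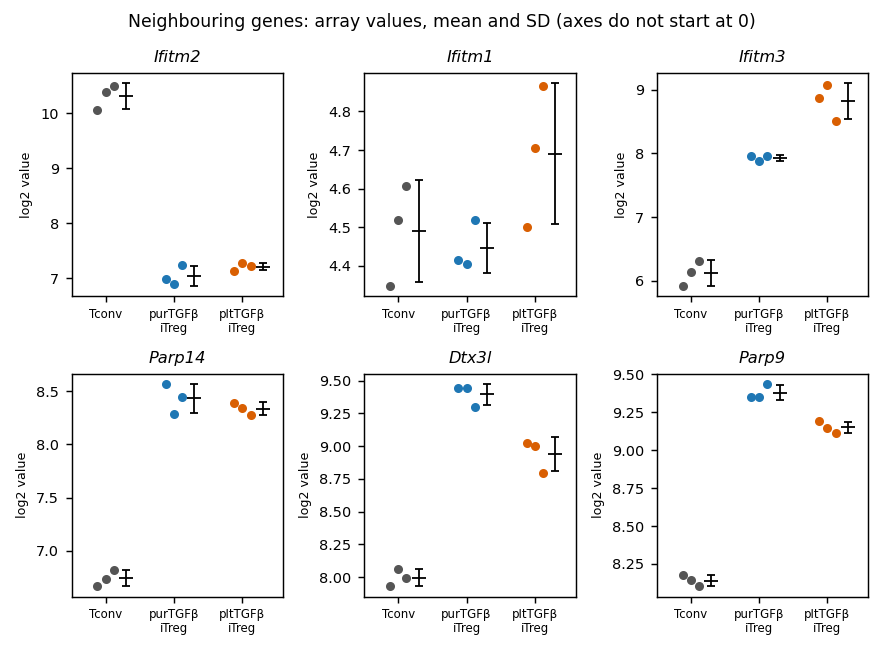
Log2 value on each array (points) with the mean and SD of 3 arrays (black) for genes that neighbour each other: Ifitm2, Ifitm1 and Ifitm3 (upper row) and Parp14, Dtx3l and Parp9 (lower row). Axes differ and do not start at 0. Ifitm2 and Ifitm3 move in opposite directions from Tconv to the iTreg groups, while Parp14, Dtx3l and Parp9 all rise.

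BST2 (tetherin) holds budding virus at the cell surface. Bst2 had values of 9.44, 9.45 and 9.46 in Tconv, 8.90, 8.84 and 8.98 in purTGFβ_iTreg and 9.10, 9.07 and 9.01 in pltTGFβ_iTreg. The Tconv arrays were the highest, and the changes were -0.54 ± 0.07 (SE, adjusted p = 9.22e-05) in purTGFβ_iTreg and -0.39 (adjusted p = 0.00115) in pltTGFβ_iTreg, under the fold cutoff. With each array centred on its median, the first was -0.48 and not called. RTP4 is a chaperone of receptors that also limits viral replication. In Tconv the values of Rtp4 were 3.63, 3.53 and 3.85, against 4.17, 3.95 and 4.16 in purTGFβ_iTreg and 4.87, 4.74 and 5.12 in pltTGFβ_iTreg. The groups rose from Tconv through purTGFβ_iTreg to pltTGFβ_iTreg without overlap. The change was 0.42 (adjusted p = 0.0126) in purTGFβ_iTreg, under the fold cutoff. It was called without Tconv replicate 3 (0.51) or after quantile normalization (0.53). The change was 1.24 ± 0.12 (SE, adjusted p = 5.35e-06) in pltTGFβ_iTreg, or 2.35-fold, and 0.81 ± 0.12 (SE, adjusted p = 0.00164) between the iTreg groups, or 1.76-fold. A second, dimmer probe set for Rtp4 had changes of -0.20 and 0.04 against Tconv and 0.25 between the iTreg groups and was not called.

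Among the other effectors, ISG20 is an exonuclease that degrades single-stranded RNA. On the Tconv arrays Isg20 stood at 6.76, 7.01 and 6.94, on those of purTGFβ_iTreg at 8.37, 8.28 and 8.50 and on those of pltTGFβ_iTreg at 8.54, 8.48 and 8.19. The iTreg groups overlapped each other and lay above Tconv, with increases of 1.48 ± 0.11 (SE, adjusted p = 6.26e-07) and 1.501 ± 0.11 (SE, adjusted p = 6.22e-07). SAMHD1 depletes deoxynucleotides and so starves reverse transcription. Samhd1 read 10.05, 9.93 and 9.83 on the Tconv arrays, 10.82, 10.74 and 10.79 on the purTGFβ_iTreg arrays and 10.52, 10.53 and 10.52 on the pltTGFβ_iTreg arrays. The increases were 0.84 ± 0.08 (SE, adjusted p = 4.28e-06) and 0.59 ± 0.08 (SE, adjusted p = 9.3e-05), without overlap. Of the 4 other probe sets for Samhd1, 2 were called higher in both comparisons and 2 were not called.

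RSAD2 (viperin) makes a chain-terminating nucleotide, from a substrate that the product of its neighbour Cmpk2 supplies. The log2 values of Rsad2 were 5.14, 4.82 and 4.98 in Tconv, 4.18, 4.49 and 4.37 in purTGFβ_iTreg and 4.18, 4.50 and 4.65 in pltTGFβ_iTreg. The changes were -0.63 ± 0.13 (SE, adjusted p = 0.00212) and -0.54 ± 0.13 (SE, adjusted p = 0.00624). The Tconv arrays were the highest, yet 2 dimmer probe sets gave -0.34 and -0.28, and -0.24 and -0.48, and were not called. The call in pltTGFβ_iTreg was lost without Tconv replicate 1 (-0.46) or pltTGFβ_iTreg replicate 1 (-0.40). It was lost with centred arrays too (-0.48), and with the gene's probe sets averaged neither call held (-0.41 and -0.43). Cmpk2, next to it on chromosome 12, had changes of -0.06 and -0.04. A second probe set for Cmpk2 gave 0.41 (adjusted p = 0.00621) and 0.20, not called. Ifi35 and Xaf1 were not called: Ifi35 had 0.21 and -0.20 against Tconv and -0.40 between the iTreg groups, and Xaf1 had 0.01, 0.28 and 0.27. A cross-hybridising probe set for Ifi35 was called higher in purTGFβ_iTreg, at 0.60. A dimmer probe set for Xaf1 gave -0.16 and -0.08 against Tconv, not called.

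In all, 26 of the 38 genes were called in at least 1 comparison and 12 in none. The share of all genes called in at least 1 comparison was not counted, and the comparisons share arrays. The 12 had array values from 2.45 to 11.07 and changes from -0.40 to 0.41. No gene called in a comparison had overlapping arrays in it. Arrays also did not overlap for 6 genes not called in purTGFβ_iTreg against Tconv, 10 in pltTGFβ_iTreg against Tconv and 16 between the iTreg groups. How many of all genes had no overlap was not counted, so these numbers are not a result about the 38.

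Between the iTreg groups, the 5 genes called were Ifih1, Usp18, Ifitm3, Rtp4 and Zbp1, with changes of 1.26, 1.03, 0.89, 0.81 and 0.57. They cover sensors, the off-switch Usp18 and membrane proteins, and their positions relative to Tconv differed. Ifih1 and Usp18 were lowest in purTGFβ_iTreg, while Ifitm3, Rtp4 and Zbp1 were lowest in Tconv and highest in pltTGFβ_iTreg. Of the other 33 genes, 21 had a change above 0 and 12 below 0. Those below 0 included Dtx3l, Irgm1, Ifi35 and Trim30a, at -0.46, -0.41, -0.40 and -0.34, each under the fold cutoff. Their adjusted p values in the limma model were 0.0104, 0.0757, 0.0215 and 0.0202, so the fold cutoff alone kept them from being called lower. The same held above 0 for Gbp2 (0.45, adjusted p = 0.0318) and Ddx58 (0.39, adjusted p = 0.037). Leaving out each array in turn gave 5 to 6 calls.

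**Figure D4:**
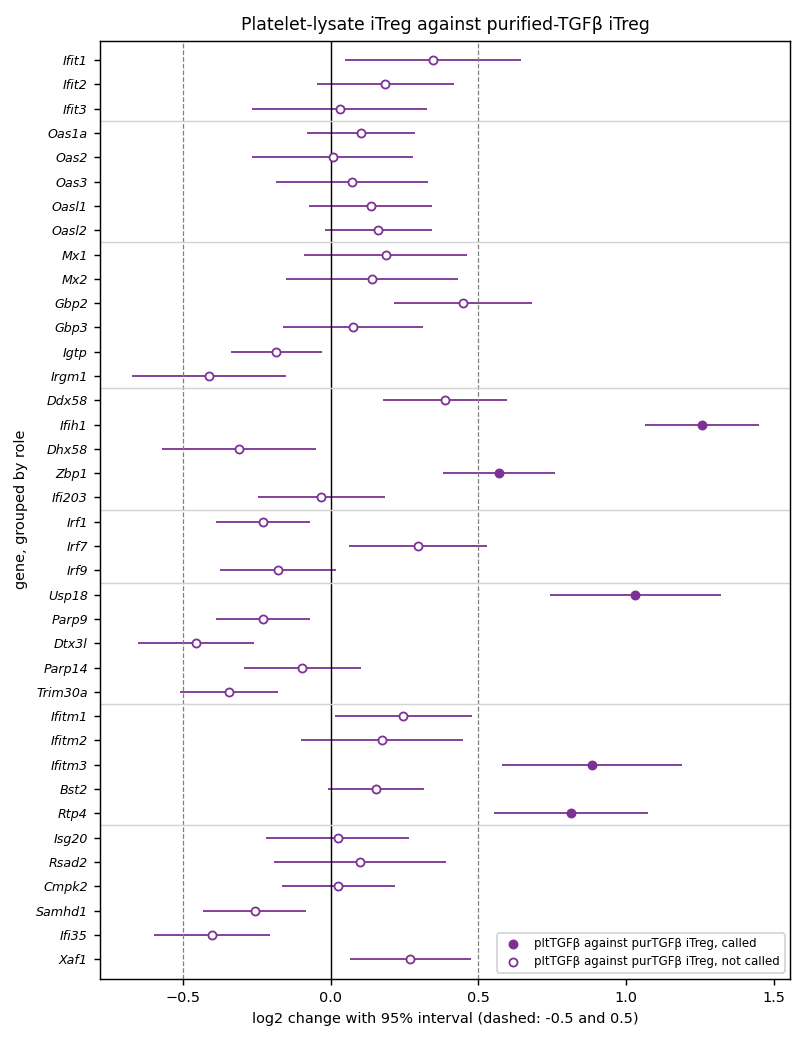
Log2 change of each of the 38 genes (rows) in pltTGFβ_iTreg against purTGFβ_iTreg, with the 95% interval as a line; filled points were called and dashed lines mark -0.5 and 0.5. Ifih1, Usp18, Ifitm3, Rtp4 and Zbp1 are the filled points, all right of 0.5, and no gene was called lower.

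**Figure D5:**
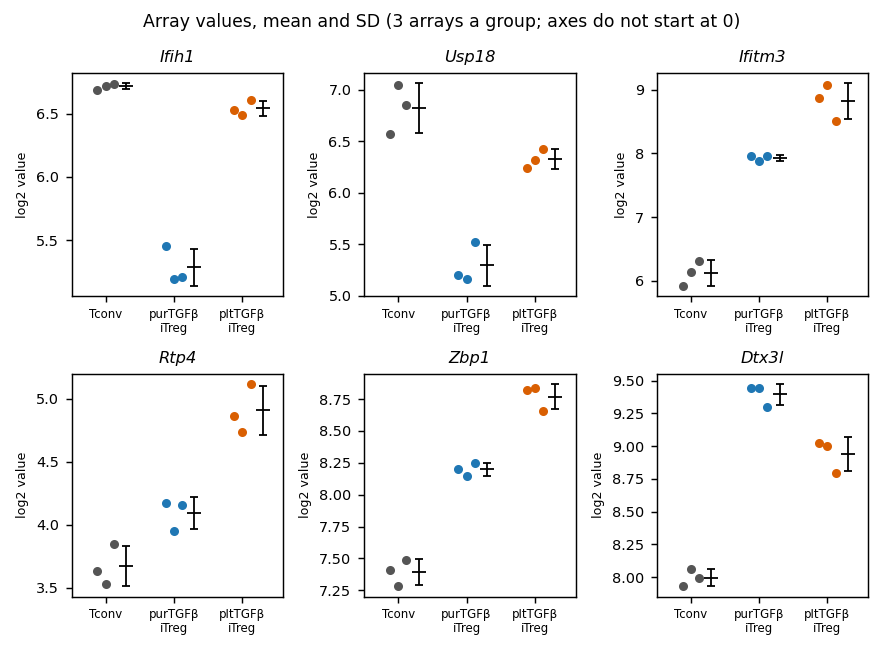
Log2 value on each array (points) with the mean and SD of 3 arrays (black) for the 5 genes called between the iTreg groups and for Dtx3l, the lowest change of the 38. Axes differ and do not start at 0. In Ifih1 and Usp18 the purTGFβ_iTreg points are the lowest, and in Ifitm3, Rtp4 and Zbp1 the Tconv points are.

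Other genes of the pathway were taken from lists of 121 genes, of which 103 were measured. In purTGFβ_iTreg against Tconv 21 were called higher and 19 lower (38.8%, where 29.3% of all genes were), in pltTGFβ_iTreg 18 and 16 (33%, near the 28.5% of all genes), and between the iTreg groups 6 and 6 (11.7%, where 4.11% of all genes were). With quantile normalization the splits against Tconv were 14 higher and 23 lower, and 15 and 22. With centred arrays the second was 25 and 14. For these alternatives the shares of all genes were not counted. Of the 5 interferon genes measured, Ifng alone was called. For Ifng, the Tconv arrays gave 5.95, 5.95 and 5.74, those of purTGFβ_iTreg 5.71, 5.29 and 5.75 and those of pltTGFβ_iTreg 10.49, 10.47 and 10.39. It was far higher in pltTGFβ_iTreg than in either other group, by 4.57 ± 0.12 (SE, adjusted p = 3.83e-10) against Tconv and 4.87 ± 0.12 (SE, adjusted p = 3.3e-09) against purTGFβ_iTreg. Its change in purTGFβ_iTreg against Tconv was -0.29, with 1 overlapping array.

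Of the 6 receptor chains, Ifngr1, which binds interferon-γ, was higher in both iTreg groups, by 1.30 ± 0.08 (SE, adjusted p = 1.54e-07) and 1.09 ± 0.08 (SE, adjusted p = 6.98e-07). Ifngr2, the signalling chain, was lower in purTGFβ_iTreg by 0.65 ± 0.12 (SE, adjusted p = 0.00116), and had a change of -0.50 in pltTGFβ_iTreg, not called. Neither chain of the type I receptor was called, with means in Tconv, purTGFβ_iTreg and pltTGFβ_iTreg of 7.70, 7.62 and 7.64 for Ifnar1 and 8.66, 8.53 and 8.55 for Ifnar2. Stat2 was called higher in purTGFβ_iTreg, by 0.61 ± 0.10 (SE, adjusted p = 3.99e-04), and not in pltTGFβ_iTreg, at 0.20. The kinase gene Tyk2 was lower in both, by 0.72 ± 0.11 (SE, adjusted p = 2.17e-04) and 0.67 ± 0.11 (SE, adjusted p = 3.79e-04), and Jak1 (0.44 and 0.27) and Jak2 (0.25 and 0.41) were not called. Stat4, which acts below interleukin-12 and type I interferon, was lower by 1.97 ± 0.08 (SE, adjusted p = 9.54e-09) and 1.14 ± 0.08 (SE, adjusted p = 6.57e-07), and higher in pltTGFβ_iTreg than in purTGFβ_iTreg by 0.83 ± 0.08 (SE, adjusted p = 1.30e-04).

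Among 8 negative regulators, 2 were called higher and 1 lower in purTGFβ_iTreg, and 1 and 2 in pltTGFβ_iTreg. This is 37.5% called in each, where 29.3% and 28.5% of all genes were. The STAT inhibitor Socs3 rose by 0.65 ± 0.09 (SE, adjusted p = 1.03e-04) and 1.06 ± 0.09 (SE, adjusted p = 1.87e-06). Socs1, which blocks JAK kinases, was not called, at 0.29 and 0.44. Pias4 was lower by 0.83 ± 0.09 (SE, adjusted p = 1.63e-05) and 0.85 ± 0.09 (SE, adjusted p = 1.5e-05). Pias1 was called only in purTGFβ_iTreg, at 0.55, and Pias3 only in pltTGFβ_iTreg, at -0.75. The difference between the iTreg groups was not called for these genes. Of 6 interferon regulatory factors and their partners outside the 40 genes, Irf2bp1 was lower in both, at -0.66 and -0.57.

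Of 13 genes of nucleic acid sensing, Mavs, the adaptor through which IFIH1 and DDX58 signal, moved opposite to Ifih1. Its mean was 7.77 in Tconv, 8.88 in purTGFβ_iTreg and 7.88 in pltTGFβ_iTreg. The change was 1.10 ± 0.10 (SE, adjusted p = 3.09e-06) in purTGFβ_iTreg, 0.10 in pltTGFβ_iTreg and -1.001 ± 0.10 (SE, adjusted p = 1.09e-04) between the iTreg groups. The kinase gene Tbk1 was higher in both iTreg groups, at 1.00 in each, while Ticam1 (-0.78 and -0.83) and Ikbke (-0.54 and -0.51) were lower. Aim2 was called in purTGFβ_iTreg at 0.87, and Myd88 in pltTGFβ_iTreg at 0.57.

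Of 13 antigen presentation genes, 1 was called higher and 2 lower in purTGFβ_iTreg, and 1 each way in pltTGFβ_iTreg. These are 23.1% and 15.4%, below the 29.3% and 28.5% of all genes. Nlrc5, the activator of class I genes, was higher at 0.53 and 0.50, and the immunoproteasome gene Psmb10 was lower at -0.64 and -0.51. Cd74, the invariant chain of class II, was lower in purTGFβ_iTreg at -1.07 and higher in pltTGFβ_iTreg than in purTGFβ_iTreg by 0.61.

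A further list of 46 measured interferon-stimulated genes outside the 40 also split. In purTGFβ_iTreg against Tconv 13 were called higher and 10 lower (50%, where 29.3% of all genes were called). In pltTGFβ_iTreg against Tconv these were 12 and 8 (43.5%, where 28.5% of all genes were). Between the iTreg groups they were 3 and 5 (17.4%, where 4.11% of all genes were). The GTPase genes Iigp1 (2.97 and 2.67), Ifi47 (1.55 and 1.18) and Gbp6 (1.42 and 1.58) were higher in both iTreg groups, as was Tnfsf10, which encodes the death ligand TRAIL (2.98 and 2.20). Tor3a was lower in both, at -1.68 and -1.28. Slfn2 and Gbp8, like Ifih1, were lowest in purTGFβ_iTreg, with changes in purTGFβ_iTreg against Tconv of -1.41 and -1.63, in pltTGFβ_iTreg against Tconv of -0.03 and -0.21, and between the iTreg groups of 1.38 and 1.42. Gbp7 was higher in pltTGFβ_iTreg than in either other group, at 1.22 and 1.08, and Tnfsf10 was lower there than in purTGFβ_iTreg, at -0.78.

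Markers of other cell types were read beside these genes, since sorted T cells can hold others and the lysate holds platelet material. Plasmacytoid dendritic cells, a rich source of type I interferon, had 0 of 5 markers called higher and 1 lower (Cox6a2) in each comparison with Tconv, and their summed linear level was 242 to 264 in Tconv, 188 to 190 in purTGFβ_iTreg and 182 to 186 in pltTGFβ_iTreg. Of 6 platelet markers 1 was lower in each iTreg group (Itga2b), and the sums were 230 to 276, 170 to 187 and 168 to 187. The defining platelet genes Pf4 (3.32, 3.05 and 3.30) and Ppbp (2.76, 2.46 and 2.70) were not called. Of 7 myeloid markers 1 was higher in each iTreg group (Mpeg1) and 1 was lower in pltTGFβ_iTreg than in purTGFβ_iTreg, with sums of 131 to 156, 143 to 156 and 125 to 138. Of 5 B cell markers 1 was lower in each (Cd79b), with sums of 124 to 142, 80.7 to 90.9 and 76.5 to 89.8. Of 4 CD8 or natural killer cell markers, Klrd1 was higher in both iTreg groups (4.16, 7.34 and 6.06) and Cd8b1 lower, with sums of 154 to 178, 219 to 273 and 138 to 162. The part of these cells in the values of the 38 genes was not tested.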

How the data were processed

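RNA of 9 samples was hybridised to Affymetrix Mouse Genome 430 2.0 arrays, 3 a group. The authors deposited log2 values made with RMA in Expression Console, per the series' design text, with 45101 probe sets and no detection calls. RMA compresses values near background, so folds of dim genes are understated. The same text names ANOVA in Partek Genomics Suite 6.6, which the submitters' processing notes also list. The genome build was not given in the sources used here.

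Leaving out 64 control probe sets, 45037 were tested. Of these, 34945 carried 1 symbol, 932 several and 9160 were not listed. Identifiers of 34741 matched the RefSeq table (GRCm38.p6), and 0 symbols changed. One mean per group was fitted to all 9 arrays with limma 3.58.1 in R 4.3.3, and the 3 contrasts were tested two-sided after variance moderation. Where a gene had several probe sets, that with the highest mean was used, and cross-hybridising ones only without another. Of the 38 genes, 13 had other named probe sets, 20 in all. An exact test of 3 against 3 arrays cannot go below p = 0.1 and was not used. The number of arrays limits the precision.

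Array values are given for each of the 40 genes called in any comparison. Pathway genes named are receptors, kinases and STATs listed by name, and up to 4 called genes per list and comparison with the lowest adjusted p. The genes, roles and lists were chosen with earlier results of these data known. Alternatives changed the normalization, dim filter, model, cutoffs, probe sets, replicate block and arrays left out. Sequences are from RefSeq, and tables and plots used Python 3.11.15, pandas 2.3.3 and matplotlib 3.10.9.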

Additional observations from a re-analysis of the deposited data

How the results depend on the processing

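The total counts of the 38 interferon-stimulated genes called were within 1.5 times under every alternative but the changed cutoffs, although centring cut the lower calls against Tconv from 10 to 6 and from 6 to 3, and no gene's change reversed while called. At an adjusted p under 0.05 and at least 2-fold, 12, 10 and 2 were called in purTGFβ_iTreg against Tconv, pltTGFβ_iTreg against Tconv and between the iTreg groups, and 18, 18 and 5 of the other pathway genes. At an adjusted p under 0.05 with no fold cutoff, 10 members were called between the iTreg groups, and 61, 61 and 21 pathway genes. Of these members, Dtx3l, Ifi35 and Trim30a were lower in pltTGFβ_iTreg and the others higher. Shares of all genes were counted only in the main model at the main cutoffs, with and without the dimmest probe sets. Counts under the other alternatives, the changed cutoffs among them, therefore have no share of all genes to be read against. Leaving out each array in turn gave 21 to 23, 17 to 20 and 5 to 6 members, and 38 to 40, 34 to 40 and 9 to 13 pathway genes. The median change against Tconv was 0.074 in purTGFβ_iTreg and 0.23 in pltTGFβ_iTreg with centred arrays, 0.095 and 0.23 without the dimmest probe sets, and -0.03 to 0.03 and 0.15 to 0.20 with an array left out. Between the iTreg groups it was 0.08 to 0.13 with an array left out. The cause of these shifts was not tested. Of 755 gene-by-alternative values a comparison, 726, 714 and 745 kept their call. With a gene's probe sets averaged, Zbp1 fell to 0.45 between the iTreg groups and was not called. A replicate block left 23, 19 and 5 members and 40, 34 and 12 pathway genes called. Deviations of same-numbered arrays correlated at -0.16 to 0.17, with 3 of 9 pairs over 0.1. Between the iTreg groups all 3 arrays matched their own number best, at 0.14, 0.17 and 0.076, a hint of shared numbers from the data and not the design, and against Tconv 1 of 6 pairs did. Not every pair passed 0.1, so the numbers were not taken to pair the arrays. Dim probe sets near background, without detection calls, limit what can be read from the lowest values.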
